A study of Arabidopsis thaliana with 9 samples.

Results

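BGLU45, BGLU46 and BGLU36 are 3 Arabidopsis thaliana genes of the glycoside hydrolase family 1 of beta-glucosidases, and their transcripts were followed in pistils with and without growing pollen tubes. Each was found by its name in the platform annotation of the arrays, which lists for each of them 1 probe set with no other gene. They are 3 of 13286 genes that had a probe set of their own. They were chosen by their measured log2 levels in the 3 groups of pistils, BGLU45 and BGLU46 for being lower after pollination and BGLU36 for being higher, so the differences between pollinated and unpollinated pistils are given below as a description, with no test. The comparison of the 2 kinds of pollen was not used to choose them and was tested.

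The 9 arrays came from pistils of male sterile ms1 plants of the Ler-0 ecotype at floral stage 14, in collections of 100 pistils, and fell into 3 groups of 3 biological replicates. Unpollinated pistils had received no pollen. In the second group wild-type pollen of the Col-0 ecotype had grown in the pistils for 8 hours. In the third it was Col-0 pollen that carried the myb97-1, myb101-4 and myb120-3 alleles, again for 8 hours. The study asked which transcripts change while tubes grow through the pistil, and which of those changes need the transcription factors MYB97, MYB101 and MYB120 of the pollen tube. All pistils shared the ms1 mutation, which leaves a flower without functional pollen of its own, and no collection time is given for the unpollinated ones, so time and pollination cannot be told apart. Pollen and pistil also differed in ecotype, and RNA of the tubes was extracted together with that of the pistil.

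Lignin is built from monolignols, alcohols made from phenylalanine. Plants can store monolignols as inactive glucosides, which enzymes of the UGT72E group make, and beta-glucosidases can split the sugar off again so that laccases and peroxidases can oxidise the free alcohol. BGLU45 and BGLU46 act on such monolignol glucosides, and BGLU47 is their closest relative in the family. BGLU36 belongs by sequence to a different branch, that of the myrosinases, which split glucosinolates, the sulfur-containing defence compounds of the cabbage order.

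The level of every gene is a log2 intensity, taken from array values that were deposited on a linear scale. Intensities ran from 6.4 to 27175.1 over 22746 probe sets, and the array medians from 103.3 to 117. The labelled tissue was checked on listed pistil genes, of which 3 of 10 were measured. The stigma gene AT3G12000, of the S-locus glycoprotein class, had a mean of 8.51 in unpollinated pistils, SPT, a regulator of the transmitting tract, 6.90, and INO, of the ovule's outer integument, 7.63. Of 11 pollen tube genes 8 were measured, and their mean log2 level lay between 4.17 and 4.44 on the unpollinated arrays and between 8.56 and 9.00 on the pollinated ones. Their summed intensity was 164.8 to 214.5 in unpollinated pistils, 7623 to 9096 with wild-type pollen and 6730 to 8308 with mutant pollen. A large part of the transcriptome differed from unpollinated pistils: 43.6% of probe sets passed the test between wild-type pollen and no pollen, 41.5% between mutant pollen and no pollen, and 0.312% between the 2 kinds of pollen. In the comparisons of wild-type and mutant pollen with no pollen, the median over all probe sets shifted by -0.136 and -0.11 when each array's median was subtracted, so small differences there are relative to the scaling.

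BGLU45, a beta-glucosidase with a preference for monolignol glucosides, was highest in unpollinated pistils. Its log2 level was 7.43, 7.22 and 6.80 on the 3 unpollinated arrays. After wild-type pollination it was 4.38, 4.45 and 4.43, and after mutant pollination 4.58, 4.68 and 4.80. Every pollinated array was thus below every unpollinated one, and the 3 unpollinated arrays differed from each other more (SD 0.32) than those of either pollinated group (SD 0.038 and 0.11). The difference between the means was -2.73 ± 0.14 with wild-type pollen (log2, SE, n = 3 per group), which is 6.63-fold lower, and -2.46 ± 0.14 with mutant pollen, 5.52-fold lower. Of 22746 probe sets, 49 had a lower difference with wild-type pollen and 60 did with mutant pollen.

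BGLU46, which hydrolyses monolignol glucosides and other phenolic glucosides, showed the same order of groups. Its log2 level was 6.05, 6.19 and 6.02 without pollen. With wild-type pollen it was 3.86, 3.83 and 3.93, and with mutant pollen 3.99, 4.21 and 3.91. The unpollinated arrays again lay above all pollinated ones. The difference was -2.22 ± 0.091 with wild-type pollen (log2, SE, n = 3 per group), 4.65-fold lower, and -2.05 ± 0.091 with mutant pollen, 4.14-fold lower. On all 6 pollinated arrays BGLU46 lay among the dimmest 25% of probe sets, where the deposited values carry no detection call, so the transcript can be called dim there but not absent. BGLU45 lay just above that range on the same arrays.

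Of the pistil genes, the stigma gene AT3G12000 fell together with BGLU45 and BGLU46. Its log2 level was 8.34, 8.95 and 8.23 without pollen, 4.14, 4.33 and 4.67 after wild-type and 4.45, 4.33 and 4.49 after mutant pollination. The falls were 4.13 ± 0.18 (log2, SE, n = 3 per group, limma adjusted p = 3.8e-08), which is 17.5-fold, and 4.08 ± 0.18 (adjusted p = 4.4e-08), 16.9-fold. SPT rose by 0.71 ± 0.091 (adjusted p = 0.00014) and 0.64 ± 0.091 (adjusted p = 0.00032). INO did not pass (-0.30 ± 0.11, adjusted p = 0.052, and -0.22 ± 0.11, adjusted p = 0.135), but did in both comparisons with array medians subtracted (-0.43 and -0.33) or without unpollinated array 3 (-0.40 and -0.32). With wild-type pollen it also passed after renewed quantile normalization (-0.36), without wild-type array 1 (-0.38) and without the dimmest 25% of probe sets (adjusted p = 0.0495). So 1 of the 3 measured pistil genes rose and 1 fell in each comparison. Of all probe sets, 23.4% rose and 20.2% fell after wild-type pollination, and 22.3% and 19.2% after mutant pollination. No reading is drawn from a count over 3 genes. The summed intensity of the 3 genes was 578.8 to 830.5 without pollen, 358.9 to 393.9 with wild-type and 367.1 to 389.5 with mutant pollen. The lower sum follows mainly AT3G12000, whose mean intensity went from 372.9 to 21.1 and 21.5. That of SPT went from 119.9 to 195.5 and 185.9, and that of INO from 199.5 to 162.3 and 170.3. The part of the stigma's RNA in the BGLU45 and BGLU46 values was not tested, and fewer stigma cells and less RNA per cell cannot be told apart.

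BGLU36 moved the opposite way. Its log2 level was 3.73, 3.46 and 3.63 without pollen, among the dimmest 25% on each array. After wild-type pollination it was 6.17, 6.11 and 6.51, and after mutant pollination 4.88, 5.96 and 5.85. All pollinated arrays were above all unpollinated ones, and mutant array 1 was well below the other 2 mutant arrays (SD 0.60 in that group, 0.22 with wild-type pollen and 0.14 without pollen). The difference was 2.66 ± 0.24 with wild-type pollen (log2, SE, n = 3 per group), 6.30-fold higher, and 1.95 ± 0.24 with mutant pollen, 3.87-fold higher. The SE pools the spread of all groups and so understates that of the mutant arrays. Differences of this size were less rare on the rising side, where 315 probe sets had a higher difference for wild-type and 411 for mutant pollen.

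**Figure D1:**
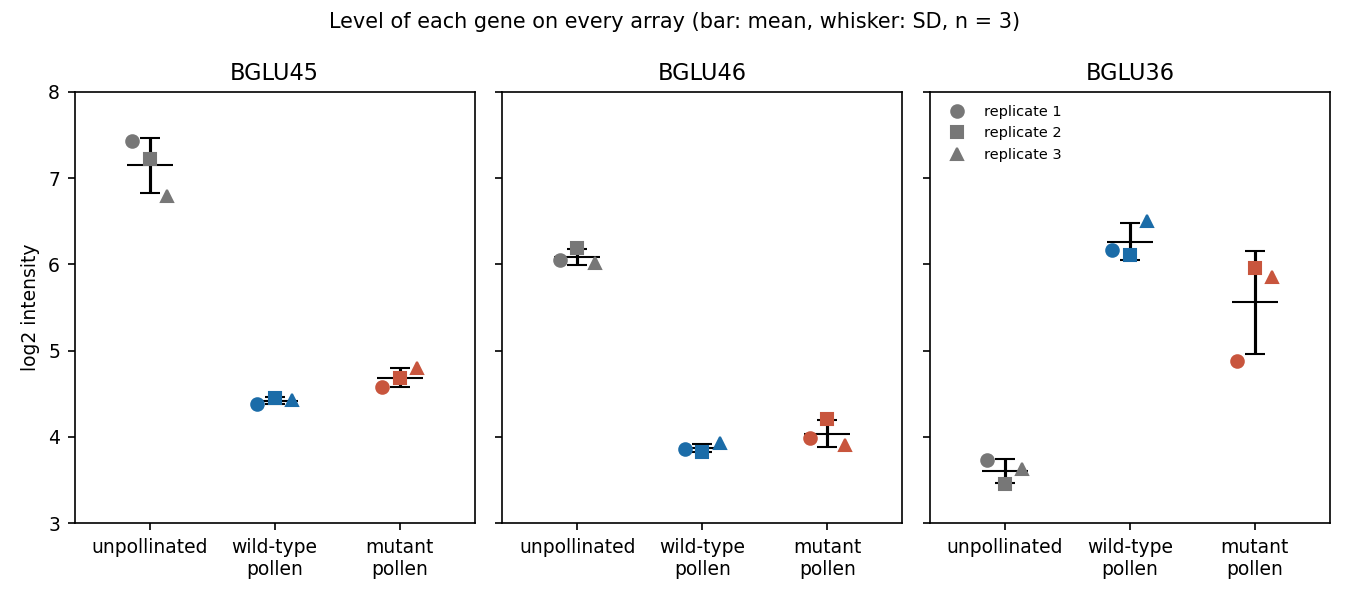
Log2 intensity of BGLU45, BGLU46 and BGLU36 (vertical axis) on each of the 9 arrays, by group (horizontal axis). Each symbol is 1 array, its shape gives the replicate number, the bar is the group mean and the whisker the SD (n = 3). BGLU45 and BGLU46 are lower on all pollinated arrays, BGLU36 is higher, and mutant array 1 of BGLU36 stands at 4.88, below the other 2 mutant arrays.

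The absence of overlap between unpollinated and pollinated arrays in all 3 genes is fixed by the way they were chosen, and it is common on these arrays. With wild-type pollen, 24.9% of probe sets were lower and 27.9% higher with no overlap between the groups, and with mutant pollen 23.4% and 27.1%. Both sets of differences share the unpollinated arrays. The sizes depend on the low end of the scale: with 16 added to each intensity before log2, the differences with wild-type pollen were -2.08 for BGLU45, -1.46 for BGLU46 and 1.72 for BGLU36.

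Whether the 3 genes differed between wild-type and mutant pollen was tested over all probe sets with limma, and none of them passed. BGLU36 had the largest difference of the 3 genes, -0.70 ± 0.24 with mutant relative to wild-type pollen (log2, SE, n = 3 per group, limma adjusted p = 0.831), which is 1.63-fold lower. Its 95% confidence interval, not adjusted for the number of probe sets, was -1.24 to -0.16, so a fall of more than 1.24 lay outside it. The interval rests on the SE that pools all groups and understates the spread of the mutant arrays, so this limit is not firm. All 3 mutant arrays were below all 3 wild-type arrays, as were those of 5.23% of probe sets. By size alone, 74 of 22746 probe sets had a lower difference in this comparison. Without mutant array 1 the difference was -0.36 (limma adjusted p = 1.00), so the value moved by over 1.5 times with this 1 array.

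BGLU45 was 0.26 ± 0.14 higher with mutant than with wild-type pollen (log2, SE, limma adjusted p = 0.998), with an interval of -0.041 to 0.57. Its mutant arrays did not overlap the wild-type ones, as for 4.73% of probe sets in that direction. For BGLU46 the difference was 0.17 ± 0.091 (limma adjusted p = 0.998), with an interval of -0.038 to 0.37 and overlapping groups. Across all probe sets 71 passed in this comparison, 6 higher and 65 lower with mutant pollen. The order of the levels was thus unpollinated far above mutant and wild-type pollen for BGLU45 and BGLU46, and unpollinated far below mutant and wild-type pollen for BGLU36, and in each gene the neighbouring mutant and wild-type groups did not differ by the test.

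BGLU36 was set beside the pollen tube genes on the same arrays. Mutant array 1 was also the pollinated array with the lowest mean of the 8 pollen tube genes, 0.28 below the mean of the wild-type arrays on the log2 scale (-0.28), while BGLU36 stood at -1.39 on it. On that array 6 of the 8 genes were below all 3 wild-type arrays, and the lowest of them stood at -0.50. On mutant array 2 the mean of the 8 genes was 0.035 from the wild-type mean with BGLU36 at -0.30, and on mutant array 3 it was -0.11 with BGLU36 at -0.41. BGLU36 was thus lower, relative to its wild-type mean, than the mean of the pollen tube genes on each mutant array. It was also below the lowest of these genes on each mutant array, but only slightly on mutant arrays 2 and 3, where the lowest was at -0.26 and -0.39. No pollen tube gene passed between mutant and wild-type pollen, and the median difference of the 8 genes was -0.12. The part of tube number in the BGLU36 value was not tested, and in such mixed tissue fewer tubes and less RNA per tube cannot be told apart. Anther genes were dim throughout: the tapetum gene A9 had means of 3.63, 3.46 and 3.40 without pollen, with wild-type and with mutant pollen. A9 passed as lower with mutant pollen (-0.23 ± 0.074, adjusted p = 0.029), but not in a fit of those groups only (0.061), with the offset of 16 (0.089) or without unpollinated array 1 or 3 or mutant array 1 or 3 (0.059 to 0.099). With wild-type pollen it did not pass (-0.17 ± 0.074), but did with array medians subtracted (-0.30, adjusted p = 0.0076) or without unpollinated array 2 (-0.22, adjusted p = 0.0498). BGLU20, the tapetum beta-glucosidase also known as ATA27, stood at 3.31, 3.40 and 3.50. These are 2 of 8 listed tapetum and anther genes, the other 6 having no probe set of their own.

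**Figure D2:**
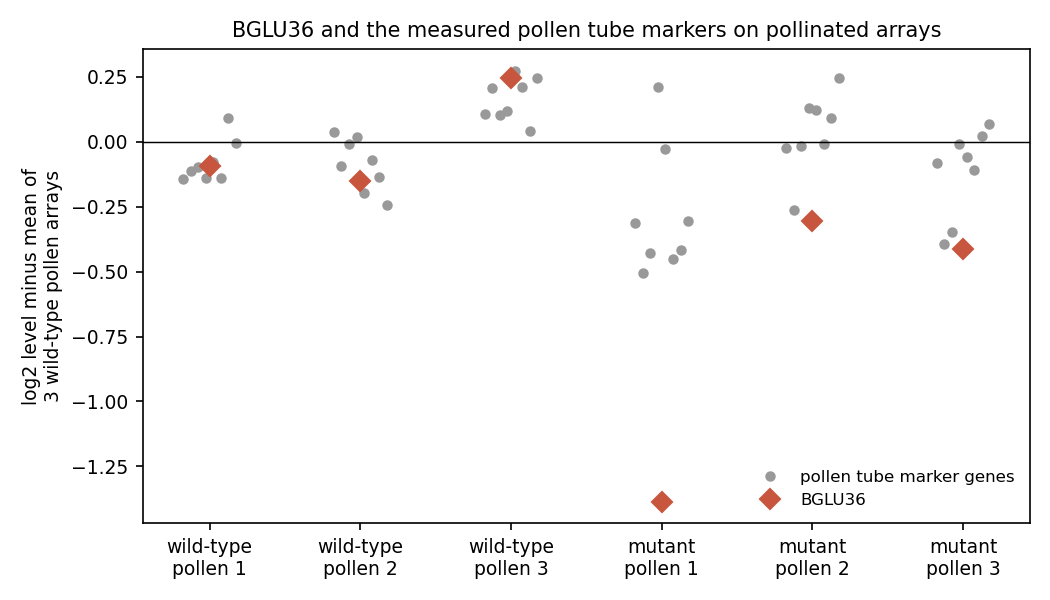
Log2 level minus the mean of the 3 wild-type pollen arrays (vertical axis) on each pollinated array (horizontal axis), for BGLU36 (diamonds) and 8 pollen tube genes (grey circles). BGLU36 lies among the circles on the wild-type arrays and at -1.39 on mutant array 1, below the lowest circle there at -0.50. On mutant arrays 2 and 3 it lies slightly below the lowest circle, at -0.30 and -0.41 against -0.26 and -0.39.

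The rest of the family gives the setting. Of the 45 other family 1 genes listed, 19 had a probe set of their own. With wild-type pollen 6 of them rose and 3 fell, 9 of 19, beside 23.4% and 20.2% of all probe sets. With mutant pollen the counts were again 6 and 3, beside 22.3% and 19.2%. A share of 9 in 19 is near the 43.6% and 41.5% called in either direction, and no reading of the family's response is drawn from it. The median difference of the 19 genes was 0.058 with wild-type pollen, against 0.0035 over all probe sets, and turned to -0.078 when array medians were subtracted. With array medians subtracted 4 fell with wild-type pollen, the added gene being PYK10 (BGLU23).

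Among the risers, BGLU28, which takes part in glucosinolate breakdown under sulfur shortage, was at 6.58, 7.25 and 7.90 without pollen, at 9.32, 9.26 and 8.47 with wild-type pollen and at 8.18, 8.34 and 8.40 with mutant pollen. Its unpollinated arrays spread widely but stayed below all others. It rose by 1.77 ± 0.30 with wild-type pollen (log2, SE, limma adjusted p = 0.000909) and by 1.06 ± 0.30 with mutant pollen (adjusted p = 0.017), and the latter call was lost without mutant array 3 (adjusted p = 0.054). BGLU15, a flavonol glucosidase, rose by 1.71 ± 0.096 and 1.91 ± 0.096, BGLU44, with beta-mannosidase activity, by 1.44 ± 0.18 and 1.14 ± 0.18, and BGLU42, of root immunity and iron nutrition, by 0.85 ± 0.11 and 0.80 ± 0.11. The other 2 risers, BGLU24 and BGLU25, lay between 0.35 and 0.44 in these comparisons. BGLU24 was dim, with means of 3.15 without pollen, 3.51 with wild-type and 3.59 with mutant pollen.

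The fallers of the family were far smaller than BGLU45 and BGLU46 in size, and they are named here after their values were seen. BGLU33 fell by 0.43 ± 0.081 after wild-type and by 0.53 ± 0.081 after mutant pollination. BGLU40 had differences of -0.37 ± 0.073 and -0.24 ± 0.073, and BGLU41 of -0.41 ± 0.12 and -0.37 ± 0.12. BGLU41 was dim, with means of 4.17 without pollen, 3.77 with wild-type and 3.80 with mutant pollen. With mutant pollen BGLU40 no longer passed without unpollinated array 3 (limma adjusted p = 0.061), mutant array 2 (0.063) or mutant array 3 (0.071). BGLU41 no longer passed with wild-type pollen without unpollinated array 1 or 2 or any wild-type array (0.051 to 0.085). With mutant pollen it did not pass without unpollinated array 1 or 2, mutant array 1 or 2 or any wild-type array (0.052 to 0.13), nor in a fit of those groups only (0.077) or with the offset of 16 (0.062). BGLU47, the closest relative of BGLU45 and BGLU46, did not pass: its mean level was 3.56 without pollen, 3.53 with wild-type and 3.58 with mutant pollen. It was 1 of 9 of the 19 genes among the dimmest 25% on all arrays, 8 of which did not pass with wild-type pollen. Over all probe sets 19.3% were that dim on all arrays. BGLU20 did not pass either. Of the myrosinase branch only BGLU36 had a probe set of its own, so it was not set beside BGLU34, BGLU35, BGLU37, BGLU38 or BGLU39. None of the 19 genes passed between mutant and wild-type pollen, where their differences were 0.02 to 0.71 in size. The 0.71 belonged to BGLU28 (-0.71 ± 0.30, adjusted p = 0.998), whose wild-type and mutant arrays did not overlap.

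**Figure D3:**
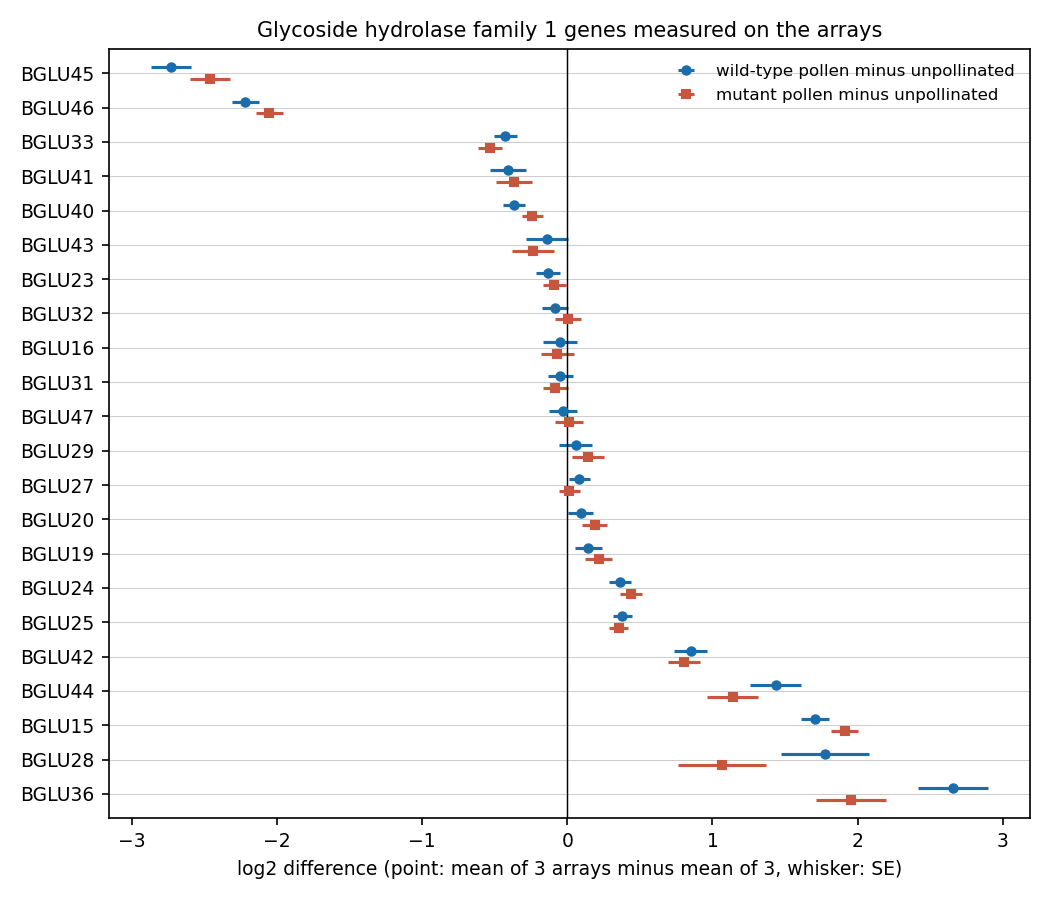
Log2 difference from unpollinated pistils (horizontal axis) for the 22 measured genes of glycoside hydrolase family 1 (vertical axis), with wild-type pollen (circles) and mutant pollen (squares). Whiskers are SE, and both series share the 3 unpollinated arrays. BGLU45 and BGLU46 lie below -2, while 16 of the other 19 genes are within 1 of 0. BGLU36, chosen for its rise, lies highest with wild-type pollen. With mutant pollen it is level with BGLU15 within the SE (1.95 ± 0.24 and 1.91 ± 0.096).

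The steps of monolignol supply and use were only partly covered by the arrays. Of 20 genes of monolignol synthesis 3 were measured. CCR2, for a cinnamoyl-CoA reductase linked to defence, rose from 4.12, 4.29 and 4.33 without pollen to 5.95, 6.17 and 5.54 with wild-type and 6.15, 5.90 and 6.32 with mutant pollen. The groups did not overlap, and the rises were 1.64 ± 0.16 (limma adjusted p = 1.8e-05) and 1.88 ± 0.16 (adjusted p = 7e-06). HCT, which forms the shikimate esters on the way to the monolignols, rose by 0.59 ± 0.091 and 0.58 ± 0.091. REF1, an aldehyde dehydrogenase of ferulate and sinapate formation, did not pass (0.18 ± 0.081 and 0.12 ± 0.081). So 2 of 3 rose and none fell in each comparison, beside 23.4% of all probe sets higher with wild-type and 22.3% with mutant pollen, and nothing is read from a list of 3.

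Of 5 genes of monolignol glucosylation and transport 4 were measured, and 1 fell in each comparison, a share near the 20.2% and 19.2% of all probe sets that were lower. UGT72E3, which attaches glucose to sinapyl and related alcohols, stood at 6.02, 6.25 and 5.44 without pollen, at 4.80, 5.05 and 5.13 with wild-type and at 4.91, 4.80 and 5.14 with mutant pollen. It fell by 0.91 ± 0.18 (limma adjusted p = 0.0026) and 0.95 ± 0.18 (adjusted p = 0.0022), with no overlap of the groups. Its neighbours in function, UGT72E1 (-0.10 ± 0.094 with wild-type pollen) and UGT72E2 (-0.14 ± 0.11), did not pass, nor did UGT72B1 (-0.06 ± 0.14). After renewed quantile normalization UGT72E2 passed too, at -0.36 with wild-type pollen (adjusted p = 0.021) and -0.31 with mutant pollen (adjusted p = 0.042).

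Of 26 laccases and peroxidases that can oxidise monolignols 7 were measured, 6 of them peroxidases, and 3 rose and 3 fell with wild-type pollen, against 3 and 2 with mutant pollen. Over all probe sets the shares were 23.4% higher and 20.2% lower in the former comparison, 22.3% and 19.2% in the latter. PRX71 (AT5G64120), a peroxidase of stressed cell walls, rose from 4.58, 4.81 and 4.66 to 9.83, 9.96 and 9.84 with wild-type pollen and to 9.66, 9.78 and 9.70 with mutant pollen. That is a rise of 5.19 ± 0.082 (36.6-fold, limma adjusted p = 2.3e-11) and 5.03 ± 0.082 (32.7-fold). PRX52, a peroxidase of stem lignification, rose by 2.72 ± 0.40 and 2.71 ± 0.40, with unpollinated arrays at 6.53, 4.78 and 4.86. PRX72, another lignin peroxidase, rose by 0.56 ± 0.09 and 0.58 ± 0.09. It was dim, with means of 3.60 without pollen, 4.16 with wild-type and 4.18 with mutant pollen. PRX25 fell by 0.57 ± 0.098 and 0.65 ± 0.098. The other fallers, named after their values were seen, were PRX17 (-0.44 ± 0.08 and -0.45 ± 0.08) and LAC16, the 1 measured laccase, which fell by 0.23 ± 0.079 with wild-type pollen and did not pass with mutant pollen (-0.0075 ± 0.079). LAC16 was dim, with means of 3.57 without pollen and 3.34 with wild-type pollen. Its call was lost with the offset of 16 (adjusted p = 0.103) and without any 1 unpollinated or wild-type array (0.06 to 0.12). PRX66 (0.72 ± 0.35 and 0.62 ± 0.35) did not pass, but did with wild-type pollen without unpollinated array 2 (adjusted p = 0.038).

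**Figure D4:**
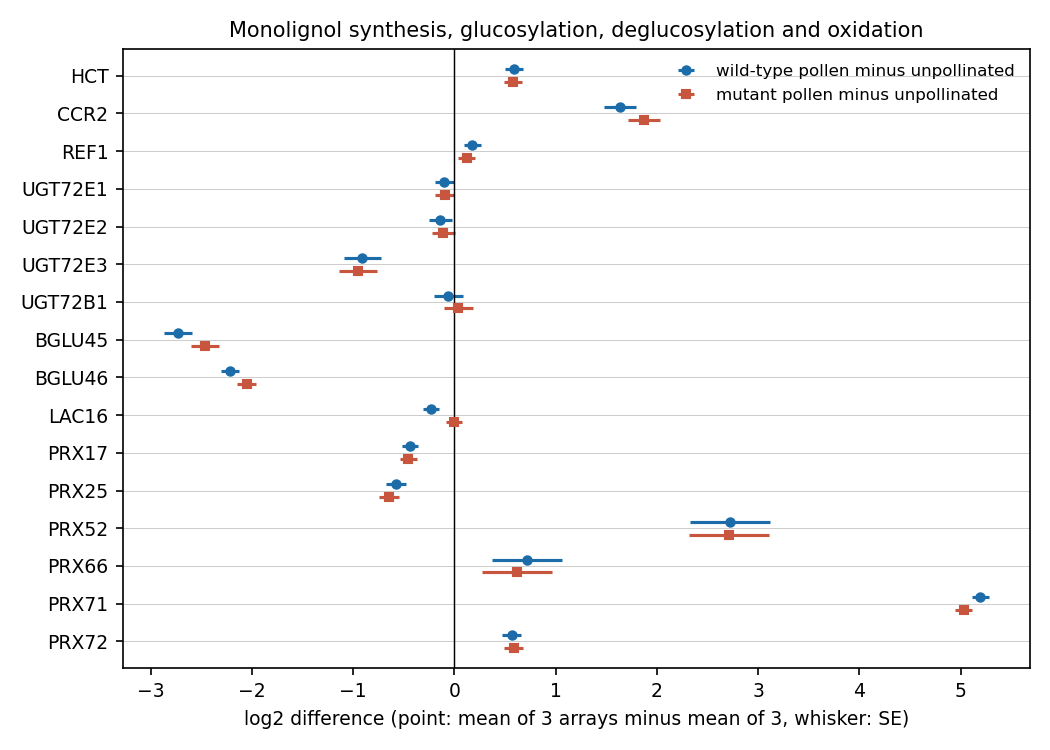
Log2 difference from unpollinated pistils (horizontal axis) for the measured genes of monolignol synthesis, glucosylation, glucoside hydrolysis and oxidation (vertical axis, from top to bottom), with wild-type pollen (circles) and mutant pollen (squares). Whiskers are SE. BGLU45 and BGLU46 lie to the left of 0. Of the genes that passed with both kinds of pollen, UGT72E3, PRX17 and PRX25 lie to the left. CCR2, HCT, PRX52, PRX71 and PRX72 lie to the right.

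Other uses of the same precursors and the myrosinase system were covered by 4 genes. Over all probe sets 43.6% passed with wild-type and 41.5% with mutant pollen, and no pathway response is read from 4 genes. DFR, of anthocyanin synthesis, rose by 1.62 ± 0.19 after wild-type and by 1.45 ± 0.19 after mutant pollination. SHT, which makes hydroxycinnamoyl spermidines of the pollen coat, had differences of -0.31 ± 0.11 and -0.34 ± 0.11, and its call was lost in the comparison with wild-type pollen without unpollinated array 3 or any 1 wild-type array (adjusted p = 0.071 to 0.11), and in that with mutant pollen without unpollinated array 3 or mutant array 2 or 3 (0.075 to 0.092). Of 22 glucosinolate genes 2 were measured, the transporters GTR2, which rose by 0.53 ± 0.097 and 0.45 ± 0.097, and GTR1, which did not pass (0.017 ± 0.11 with mutant pollen). None of 21 secondary wall regulators and cellulose synthases had a probe set of its own, so vessel and fibre cells were not followed. No gene of any of these lists passed between mutant and wild-type pollen.

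BGLU45 and BGLU46 are neighbouring protein-coding genes on chromosome 1, by locus order in the TAIR10.1 annotation, and BGLU36 lies elsewhere on the same chromosome. Their 12 different measured neighbours, 3 on each side, included 2 that rose after wild-type pollination, 3 that fell and 7 that did not pass. With 5 of 12 called, they were near the 43.6% of all probe sets. Around BGLU45 and BGLU46, AT1G61780 fell by 0.41 ± 0.079 and AT1G61770 rose by 0.52 ± 0.088. The pseudogene AT1G61830, the nearest measured locus beyond BGLU46, did not pass (-0.11 ± 0.08), but did with array medians subtracted (-0.24, adjusted p = 0.045). Around BGLU36, AT1G51410 rose by 0.89 ± 0.098 and AT1G51400 fell by 1.23 ± 0.10. The call of AT1G51540 (-0.27 ± 0.093) was lost without unpollinated array 2 or 3, wild-type array 1 or 2, or mutant array 2 or 3 (adjusted p = 0.0503 to 0.15) and in a fit of those groups only (0.065). Y14, of the exon junction complex, did not pass (0.11 ± 0.069).

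The genes most like each of the 3 were ranked by the root-mean-square difference of centred log2 levels over the 9 arrays, among 13285 other genes. For BGLU45 the closest were AT4G35690, at 0.14, AT2G26690 of the nitrate and peptide transporter family, at 0.17, AT4G33666, at 0.18, AT1G05340 and the drought-induced linker histone gene HIS1-3, both at 0.19. BGLU46 came after 16 other genes on this measure (0.28). For BGLU46 the closest were AT2G21185, at 0.16, AT4G05070 and AT5G62730, both at 0.18, and the peroxidase gene AT3G03670 and the jacalin lectin gene AT1G52000, both at 0.19, and 30 genes were closer than BGLU45. For BGLU36 the fit was looser, with AT4G15650 closest at 0.26, then AT3G48450 of the RIN4-related family and AT2G04220, both at 0.30, and AT3G23170 and AT4G02160, both at 0.31. The ranking used all 9 arrays, so a resemblance on single arrays is part of the choice. AT4G15650 was 5.42, 5.70 and 5.69 on the mutant arrays, against means of 6.14 with wild-type pollen and 3.45 without, and none of the 5 passed between mutant and wild-type pollen (limma adjusted p from 0.165 to 0.998).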

How the data were processed

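The authors deposited 1 intensity for each probe set and array, on a linear scale. Per the submitters' processing notes, RMA, Affymetrix Expression Console and Partek had been used, with no version named, and a genome build is not given in the sources used here. Of 22810 probe sets, 64 controls were left out. The platform annotation gave 1 gene for 13513 probe sets, and 13436 of these matched TAIR10.1, for 13286 genes. For genes with more than 1 probe set the brightest stood for the gene. After log2, 1 limma fit (version 3.58.1, under R 4.3.3) estimated the 3 group means from the 9 arrays, with 6 residual and 4.24 prior degrees of freedom, and Benjamini-Hochberg adjustment over 22746 probe sets within each comparison, with a call at an adjusted p under 0.05. The fit was tested on simulated data. The genes and lists were chosen with earlier results of these data known.

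The 7 lists held 151 genes. By rule, the genes named from them were the up to 4 passing members with the largest difference for wild-type pollen, plus BGLU47, the myrosinases and BGLU20 where measured. Other measured members, passing or not, are named beside them outside that rule. The deviations of same-numbered arrays had correlations of -0.16 to 0.31, and those of differently numbered arrays -0.37 to 0.17. The highest value belonged to wild-type array 3 and mutant array 3. These ranges overlapped, and the numbers entered no block in the main fit. The number of arrays limits the precision, and the replicates' p-values measure the spread between collections of pistils. No sequences of these genes were used here.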

Additional observations from a re-analysis of the deposited data

How the results depend on the processing

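Under 16 alternatives the difference of each of the 3 genes between mutant and wild-type pollen kept its sign and did not pass. It ran from -0.90 to -0.36 for BGLU36, from 0.16 to 0.32 for BGLU45 and from 0.078 to 0.23 for BGLU46. Leaving out single arrays gave the limits for BGLU36, without mutant array 2 and without mutant array 1. With the replicate number as a block it was -0.70 for BGLU36 (adjusted p = 0.738), and among the listed genes, pistil and anther genes and neighbours the block ended the calls of SHT, LAC16 and AT1G51540 with wild-type pollen (adjusted p = 0.053, 0.058 and 0.0501) and of BGLU41 and A9 with mutant pollen (0.059 and 0.054). INO passed with the block in both comparisons with unpollinated pistils (0.015 and 0.049).

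The differences from unpollinated pistils kept their sign under all alternatives. With an offset of 16 they were -2.08, -1.46 and 1.72 with wild-type pollen for BGLU45, BGLU46 and BGLU36, and -1.92, -1.37 and 1.18 with mutant pollen. By construction an offset shrinks differences at dim levels. With array medians subtracted BGLU46 was at -2.35 and -2.16, and after renewed quantile normalization at -2.19 with mutant pollen. For the latter the cause was not tested.

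Renewed quantile normalization called 2 genes of monolignol glucosylation in place of 1 in both comparisons with unpollinated pistils. Of DFR and SHT, 1 in place of 2 was called with wild-type pollen with the block, with the offset of 16 and without the dimmest 25% of probe sets, and with mutant pollen without that 25% and when just those groups were fitted. SHT is in that 25%, and the cause of the other losses was not tested. Leaving out single arrays gave 1 to 2 calls in that list. Probe sets called between mutant and wild-type pollen numbered 35 to 85 without single arrays: 42 without wild-type array 1, 38 without wild-type array 2, 37 without mutant array 1 and 35 without mutant array 3, against 71.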
